A study of Saccharomyces cerevisiae with 6 samples.

Results

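Acyl-CoA synthetases join fatty acids to coenzyme A, and acyl-CoA binding and transport proteins carry the product to the places where it is used. The 8 genes described here were taken by gene symbol, with earlier results of these data known, as FAA1, FAA2, FAA3, FAA4, FAT1, ACB1, PXA1 and PXA2, out of 979 yeast genes on the array. FAT3, the only other gene of the 9 named in that choice, was not among the genes on the array and so was not measured. RNA from Saccharomyces cerevisiae, budding yeast, was hybridized to 6 single-colour oligonucleotide arrays, 3 for a wild type strain and 3 for the wild type carrying overexpressed ACC1. Neither the labels nor the files name the promoter or plasmid used for overexpression, the strain background, the medium or the growth stage. ACC1 encodes acetyl-CoA carboxylase, which makes the malonyl-CoA from which fatty acids are built.

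In yeast, Faa1 and Faa4 are the main synthetases for long-chain fatty acids taken up from the medium, and Faa2 activates fatty acids inside the peroxisome. Fat1 takes part in fatty acid uptake and activates very long chains. Acb1 binds acyl-CoA esters in the cytosol, and the Pxa1 and Pxa2 subunits form the transporter that brings long-chain acyl-CoA into the peroxisome for beta-oxidation.

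Each gene was read by a single probe of 35 bases printed in 2 spots. The probes are shown because a signal from a synthetase gene is only as specific as its probe within this family of related genes. Capitals mark the longest run of bases that a probe shared with any other yeast probe on the array.
FAA1: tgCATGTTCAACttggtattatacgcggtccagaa
FAA4: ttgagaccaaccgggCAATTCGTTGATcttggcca
FAA3: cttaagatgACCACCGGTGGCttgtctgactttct
FAA2: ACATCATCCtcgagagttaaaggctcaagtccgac
FAT1: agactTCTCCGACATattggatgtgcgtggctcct
ACB1: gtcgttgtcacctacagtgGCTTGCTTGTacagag
PXA1: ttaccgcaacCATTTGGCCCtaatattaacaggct
PXA2: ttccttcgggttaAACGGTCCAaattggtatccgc

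The marked runs were 9 to 12 bases long. The longest were those of FAA4, shared with the probe of HEM15, and of FAA3, shared with that of FUR1. Among the 8 probes themselves no shared run exceeded 8 bases, the length that FAA3 and ACB1 had in common. The comparison set the array's own probes against each other, and no full transcript was searched, those of the other 7 members included. Probes of related genes can lie at different positions, so the runs cannot tell how specific a probe is within the family. Probe names give positions within each gene's reading frame. The ACB1 probe covered positions 89 to 123, the FAA1 probe 1168 to 1202 and the PXA2 probe 2171 to 2205. Read as the reverse complement in the frame those positions give, all 979 yeast probes held no stop codon, so the printed letters are of the strand opposite to the coding strand. The labelling kit is described as making antisense RNA, and the sources used here do not say whether the sequence column lists the immobilized strand.

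The wild type arrays were brighter. Before normalization the median gene was 2.09-fold brighter in wild type, and the 8 genes were 1.97-fold to 2.43-fold brighter. The control probes were brighter there too. Their medians ran from 1930 to 2114 on the wild type arrays and from 1045 to 1155 on the ACC1 overexpression arrays. Median yeast spot intensities ran from 3686 to 4565 on the wild type arrays and from 1796 to 2022 on the ACC1 overexpression arrays, and quantile normalization removed this difference. No array held both groups, so the group and an array or scan difference cannot be told apart. Separate cultures are not stated for the replicates, and the p-values cover the spread among these samples alone, which may be technical. ACC1 itself was 2.32 higher on the log2 scale (standard error 0.07, adjusted p = 1.18e-07 in limma) in the ACC1 overexpression arrays, as their labels state.

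None of the 8 genes passed the test as higher or lower with ACC1 overexpression. In limma with Benjamini-Hochberg adjustment over 979 genes, 0 of 8 passed an adjusted p of 0.05, and the adjusted p-values ran from 0.457 to 0.987. Over all genes, 3.47% passed, 2.66% as higher and 0.817% as lower. At an unadjusted p under 0.05, again 0 of 8 passed, against 20.1% of all genes. The values of the groups overlapped for each of the 8 genes, whereas 24.7% of all genes had groups that did not overlap. With 8 genes, these counts do not set the family apart from the other genes. The 7 genes above the control probes had differences between −0.11 and 0.09, of which 4 were positive and 3 negative. Their median was 0.04, beside −0.0088 over all genes. Their 95% intervals reached from −0.28 to 0.23, which as intensities is from −17.4% to 17.5%. Changes beyond those bounds lay outside the intervals on the normalized scale, from which no background was subtracted, and a real change of a transcript is understated where background adds to its signal.

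**Figure D1:**
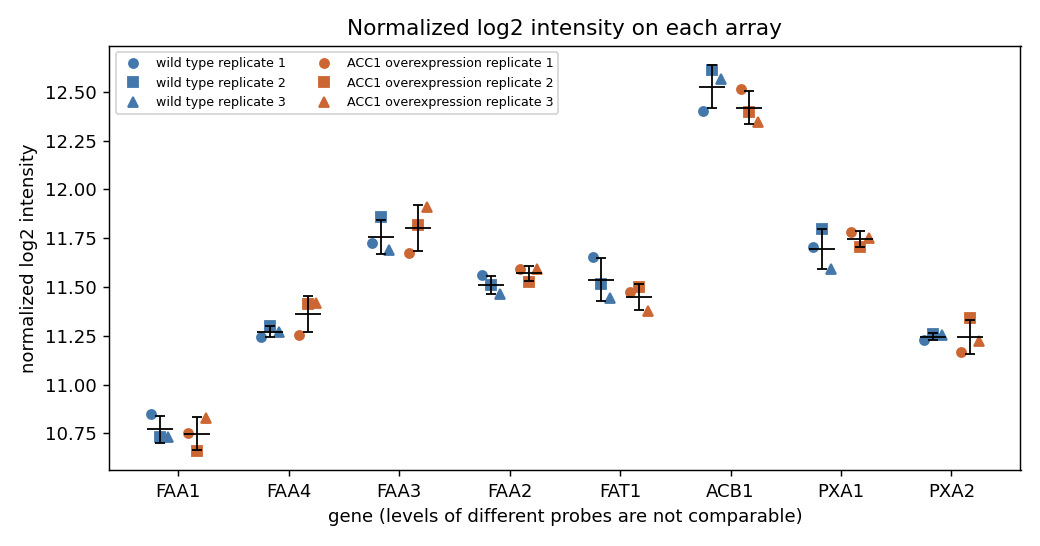
Normalized log2 intensity of the 8 genes on each of the 6 arrays, with the mean and SD of each group of 3 as a bar. The groups overlap for every gene, and heights of different genes cannot be set against each other because each has its own probe.

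FAA1, one of the main synthetases for imported fatty acids, was not above the 95th percentile of the control probes on any of the 6 arrays. Its intensities were 2366.5, 2324 and 2627 on the wild type arrays and 1215.5, 1122.75 and 1377.25 on the ACC1 overexpression arrays. These were 0.782 to 0.970 times the control level of the same array. Both groups were therefore at the level of the controls and no fold is given for FAA1 (adjusted p = 0.888 in limma).

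FAA4, which encodes the other main synthetase for imported fatty acids, had normalized log2 intensities of 11.24, 11.30 and 11.27 in wild type. On the ACC1 overexpression arrays it had 11.25, 11.41 and 11.42. Replicates 2 and 3 of ACC1 overexpression lay above every wild type array and replicate 1 lay among them. The log2 difference of 0.09 (95% interval −0.05 to 0.23) had an adjusted p of 0.466 in limma, the second lowest of the 8. The FAA4 probe was at 1.05 to 1.45 times the control level. After normexp background correction with an offset of 50 the difference was 0.23, and with only the first spot of each probe it was −0.00043, so its size depended on the background setting and on the spot.

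FAA3, a synthetase with a preference for longer chains, had normalized log2 intensities of 11.73, 11.86 and 11.69 in wild type and of 11.68, 11.82 and 11.91 with ACC1 overexpression. The ACC1 overexpression arrays held both the lowest and the highest of the 6 values. The difference was 0.04 (95% interval −0.13 to 0.22), or 0.07 after normexp with an offset of 50.

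FAA2, the peroxisomal synthetase, had normalized log2 intensities of 11.56, 11.51 and 11.46 in wild type and of 11.59, 11.53 and 11.59 with ACC1 overexpression. Replicates 1 and 3 of ACC1 overexpression were above all wild type arrays and replicate 2 was not. The difference of 0.06 had the standard error of 0.06 that was the smallest of the 8 genes (95% interval −0.07 to 0.19). It was 0.12 after normexp with an offset of 50.

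FAT1, the very long-chain synthetase and uptake gene, had normalized log2 intensities of 11.66, 11.51 and 11.44 in wild type and of 11.47, 11.50 and 11.38 with ACC1 overexpression. Wild type replicate 1 was the highest array and ACC1 overexpression replicate 3 the lowest. The difference was −0.09 (95% interval −0.25 to 0.07, adjusted p = 0.531 in limma). The spots of FAT1 differed by up to 31.3% on one array, and its difference was 0.03 from the first spot alone and −0.21 from the second alone. With both spots it was −0.18 after normexp with an offset of 50.

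ACB1, the acyl-CoA binding protein, had the lowest adjusted p of the 8 (0.457 in limma). Its normalized log2 intensities were 12.40, 12.61 and 12.57 in wild type and 12.51, 12.40 and 12.34 with ACC1 overexpression. Wild type replicate 1 lay among the ACC1 overexpression values, and the other wild type arrays lay above all of them. The difference was −0.11 (95% interval −0.28 to 0.06). Set array against array by replicate number, the ACB1 difference was 0.11 for replicate 1 and −0.21 and −0.22 for replicates 2 and 3. ACB1 was 2.42 to 3.72 times the control level.

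Neither subunit of the peroxisomal acyl-CoA transporter passed the test. PXA1 had normalized log2 intensities of 11.70, 11.80 and 11.59 in wild type and of 11.78, 11.70 and 11.75 with ACC1 overexpression, and both its highest and its lowest array were wild type. Its difference was 0.05 (95% interval −0.10 to 0.20), or 0.09 after normexp with an offset of 50. PXA2 had 11.23, 11.26 and 11.25 in wild type and 11.17, 11.34 and 11.22 with ACC1 overexpression. All 3 wild type values of PXA2 lay between the lowest and the highest ACC1 overexpression values. The PXA2 difference was −0.0030 (95% interval −0.14 to 0.14, adjusted p = 0.987 in limma), and its probe was 1.03 to 1.43 times the control level.

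**Figure D2:**
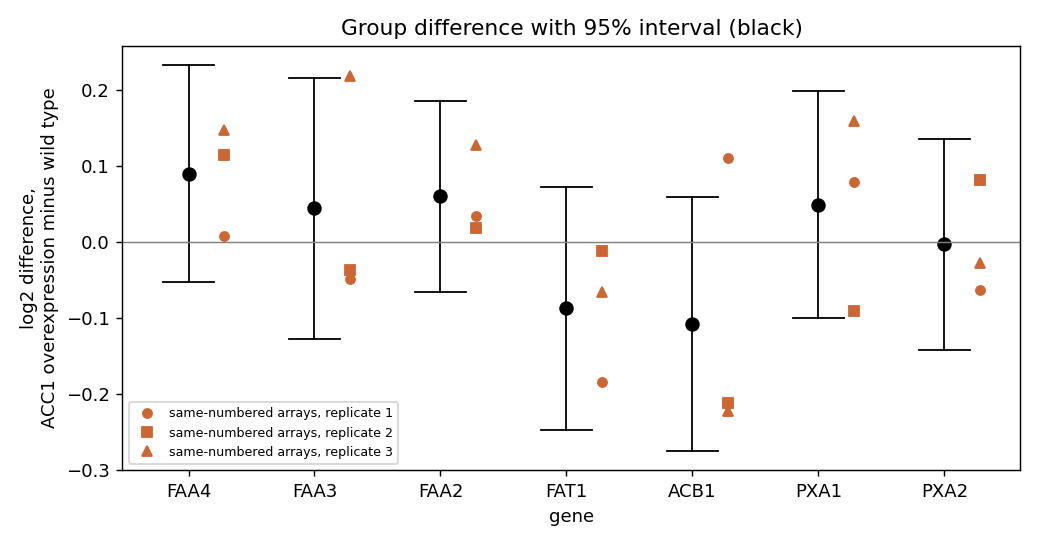
Log2 difference of ACC1 overexpression minus wild type for the 7 genes above the control probes, with the 95% interval from limma in black and the differences of same-numbered arrays in colour. Every interval spans 0.

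Whether members changed unequally was asked within arrays for 6 pairs, comparing the difference of their log2 values between groups. Exact permutation tests, two-sided and over arrays, gave p-values from 0.2 to 1 (0.84 to 1 after adjustment over the 6 pairs), and 3 against 3 arrays cannot give less than 0.1. For the transporter subunits, PXA1 minus PXA2 changed by 0.05, with an SD between arrays of 0.10 in wild type and 0.13 in ACC1 overexpression. For the peroxisomal synthetase and transporter, FAA2 minus PXA1 changed by 0.01, with SDs of 0.09 and 0.01. The 4 other pairs included FAA1, whose probe was at the control level. The lowest p, 0.2 in the exact permutation test, was that of FAA1 minus FAA2, whereas PXA1 minus PXA2 had 0.6. These p-values do not show that the members changed alike.

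Over the 21 pairs of the 7 genes above the control probes, Pearson's r across the 6 arrays ran from −0.60 to 0.80 with a median of 0.0039, and 11 were positive. The highest was that of FAA4 with FAA3, and the transporter subunits PXA1 and PXA2 had −0.32. Each r rests on 6 arrays in 2 groups that share hybridization and normalization, so they are descriptions. For the 2 members with the lowest p, the genes of most similar pattern over the 6 arrays were ERG12 (r = 0.947), RMT2 (0.929) and COQ5 (0.926) for ACB1. For FAA4 they were LCB3 (0.987), BIR1 (0.939) and MAK31 (0.923), of which LCB3 and MAK31 were above the control probes on 2 of the 3 wild type arrays. MAK31 was above them on 2 of the 3 ACC1 overexpression arrays as well. For each member these are the 3 highest r out of all other yeast genes, a pick that itself favours high values over 6 arrays.

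Genes that make, use or break down acyl-CoA were counted in the same fit. The share that passed over all genes, 3.47%, stands beside each count here, and at that share a count of 0 is usual for lists this small. In fatty acid synthesis and its acetyl-CoA supply, ACC1, the overexpressed gene itself, rose. Of the 6 other measured genes 1 passed as higher, the fatty acid synthase gene FAS1 (0.62, adjusted p = 0.0041 in limma), and 0 as lower. The 7 measured genes, ACC1 included, had a median of 0.25, and 6 of the 7 were positive, beside 46.4% of all genes. Those 6 include ACC1 itself and ACS2, which stood at 0.0025. In beta-oxidation and peroxisomal acyl-CoA metabolism, 0 of 14 passed, with a median of 0.02. ECI1, an enoyl-CoA isomerase, stood at 0.24 (adjusted p = 0.127 in limma), and FOX2, the multifunctional beta-oxidation enzyme, stood at −0.17 (0.155). ECI1 was above the control probes on 1 of 3 wild type arrays.

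Among acyltransferases that use acyl-CoA, 0 of 11 passed (median −0.0028), beside 3.47% of all genes. EHT1, an ethyl ester synthase above the control probes on 2 of 3 arrays of each group, stood at −0.16 and the glycerol-3-phosphate acyltransferase gene GPT2 at 0.12. Among protein acylation genes 0 of 7 passed (median 0.0081), with the palmitoyltransferase gene AKR1 at −0.17 and the myristoyltransferase gene NMT1 at 0.07. In fatty acid release from lipids 0 of 12 passed (median −0.01), with the monoacylglycerol lipase gene YJU3 at −0.13 and the lysophospholipase gene NTE1 at −0.14.

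Elongation and desaturation had 0 of 8 genes past the threshold (median −0.04). Of its leading genes, PHS1 was above the control probes on no array and ELO3 on no wild type array, so no fold is given for them. Of the regulators of fatty acid responsive genes, ADR1 and OAF1 alone were measured among 10 listed, at −0.07 and −0.12, and 0 passed. ADR1 was above the control probes on 2 of 3 arrays of each group. Of 31 peroxisome biogenesis genes 3 were measured and 0 passed, with INP2 at −0.18 and PEX11 at 0.21. A change in most regulators and peroxisome biogenesis genes could therefore not be seen.

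**Figure D3:**
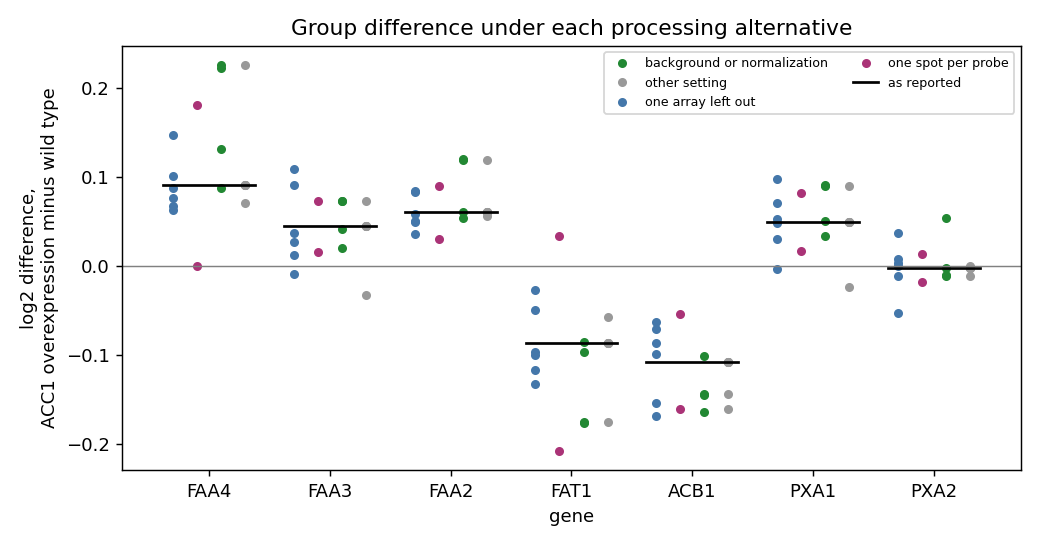
Log2 difference of ACC1 overexpression minus wild type for the same 7 genes under each processing alternative (points, coloured by kind of alternative) and as reported (black line). FAA2 stays above 0 and ACB1 below 0 in every setting, and each of the others has settings on both sides of 0.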

How the data were processed

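The authors' scanner tables hold, per the file headers, the median foreground intensity of each of 2240 spots, and no column of background. Imaging software and background subtraction were not given in the sources used. A value table deposited by the authors gives 906 rows with a score of unstated scale and centring (column medians −0.15 to −0.06). Its row numbers occur among the scanner's, and the values did not track the log2 intensities of those probes (r −0.052 to −0.035). A score of unstated scale need not follow brightness, so r cannot tell whether rows and probes match. The value table was not used for named genes.

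Log2 intensities were quantile normalized over yeast spots, leaving out 26 control probes, and spots of a probe were averaged. Groups were compared with limma 3.58.1 in R 4.3.3 (lmFit, eBayes, two-sided) with Benjamini-Hochberg adjustment over 979 genes and a threshold of 0.05. Above the control probes means a mean intensity over the 95th percentile of that array's control probes. Control probes are those not named for a yeast gene, and whether all are negative controls was not tested. The number of arrays limits precision. All 979 systematic names were found in the R64 gene table, from which only names were taken. The members and lists were chosen with earlier results of these data known. Named genes are all members, ACC1, the 2 lowest p-values of each list and the 3 nearest patterns of 2 members. The fit was tested on simulated data. Alternatives covered background, normalization, spots, a dim-gene filter, variances, array weights, the replicate number, thresholds and left-out arrays.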

Additional observations from a re-analysis of the deposited data

How the results depend on the processing

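The count of 0 of 8 genes held in 18 refits and at adjusted p of 0.01 and 0.1. Of 143 refitted member values 0 passed and 128 kept their sign. The median over spots, the dim-gene filter, the changed variances and the replicate block left each fitted difference as in the main fit. The replicate block after normexp likewise repeated the normexp differences. The 128 includes such copies, whose sign could not change, and is no measure of agreement between independent settings. The lowest adjusted p was 0.0829, for ACB1 with array weights, whose estimation stopped before it converged. The number of all genes past the threshold, 34, moved to 74 with a common median, 176 with array weights, 5 at an adjusted p of 0.01 and 68 at 0.1, 13 and 9 with only the first or second spot (chosen after seeing the data), and 4 to 123 with an array left out. It was 5 without wild type replicate 2, 123 without wild type replicate 3, and 5, 4 and 7 without ACC1 overexpression replicates 1, 2 and 3. The cause was not tested. With the replicate block it was 121, and 116 with the replicate block after normexp, with 0 of the 8 genes past the threshold in either. Deviations from the group means correlated between same-numbered arrays at 0.47, −0.02 and 0.39, and differently numbered arrays were not compared. These values do not settle whether the numbers pair the samples. The labels do not state a pairing, and the main fit was left unpaired. After normexp with an offset of 50, FAA4 stood at 0.23, FAA3 at 0.07, FAA2 at 0.12, FAT1 at −0.18 and PXA1 at 0.09. In the same setting ACB1 stood at −0.14 (adjusted p = 0.605 in limma) and PXA2 at −0.01. With array weights FAA3 stood at −0.03 and PXA1 at −0.02. Of 66 refitted pair values 8 moved by more than the SD between arrays, all of pairs with FAA1. Against the highest control probe 5 of the 8 genes stood above on all arrays, and against the median control probe 8 did. The dim-gene filter removed FAA1. Signal over the controls limits the folds of FAA1, FAA4 and PXA2 most.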
